A study of Caenorhabditis elegans with 2 samples.

Results

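The heat shock and chaperone genes of Caenorhabditis elegans were taken as the protein-coding genes whose symbol in the Ensembl release 115 annotation begins with hsp-, dnj- or cct-, which gave 59 of 19973 protein-coding genes on the 6 nuclear chromosomes. They were divided by textbook roles into 15 constitutive chaperones (the main hsp- genes and all 8 cct- genes), 8 stress-induced hsp- genes, 7 other hsp- genes and 29 J-domain (dnj-) genes. The occupancy data came from ChIP-seq of SNAI-1 (K02D7.2), a Snail-family DNA-binding protein with zinc fingers, carrying a C-terminal GFP tag (eGFP in one label, GFP-FLAG in another) and recovered with an antibody against GFP. Both libraries were biological replicates of 1 group, whole mixed-sex late embryos of strain OP698 (unc-119(tm4063) III; wgIs698), collected 5 hours after egg-bleach synchronization. The tagged protein was made from the transgene insertion wgIs698, and whole embryos mix all cell types, so strong occupancy in few cells and weak occupancy in many cannot be told apart. No heat shock or other second condition was among the samples, and the labels name no stress treatment.

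Molecular chaperones bind unfolded or partly folded proteins and help them reach or keep their native state. Hsp70 proteins work with J-domain proteins, which deliver substrates and start ATP hydrolysis, and with nucleotide exchange factors, while the chaperonins (HSP-60 in mitochondria and the ring of CCT subunits in the cytosol) enclose a substrate in a chamber. Some of these genes are expressed at all times, whereas the small hsp-16 genes and the inducible Hsp70 genes are nearly silent until heat activates the transcription factor HSF-1, which binds heat shock elements, repeats of the letters GAA in alternating orientation.

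Each gene was scored by the highest authors' signal among the regions whose summit, the position of the maximum within a region, fell between 1000 bp upstream and 200 bp downstream of an annotated transcript start. The pooled list held 30000 candidate regions from both replicates, of which the 495 strongest were also the authors' list of peaks past an irreproducible discovery rate (IDR) threshold. The signals are the authors' own values per region, in units the sources do not state, and ranks count from 1 at the strongest region of a list. The lowest signal in the IDR list was 114.7.

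At least 1 pooled candidate summit lay in the start window of 37 of the 59 chaperone genes, against 38.4% of all protein-coding genes. IDR peaks were found at 5 of the 59, namely dnj-29, hsp-60, hsp-1, hsp-90 and dnj-28, against 1.55% of all protein-coding genes. Among the 37 with a candidate summit these 5 stood against 4.05% of the genes with a candidate summit in the whole annotation. A top region among the 2000 strongest of the pooled list was found at 15 of the 59 members, against 4.89% of all protein-coding genes. The counts of chaperone genes were above the background at each of these levels, and no test was made over the members.

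By class, candidate summits were assigned to 12 of the 15 constitutive genes (80.0%), 20 of the 29 J-domain genes (69.0%), 3 of the 8 stress-induced genes (37.5%) and 2 of the 7 other hsp- genes (28.6%), against the 38.4% of all protein-coding genes. The stress-induced share was thus near the background. Of the 5 stress-induced genes without a summit, 4 are hsp-16 copies in an identical duplicated stretch, where reads of 50 bases cannot be placed, as described with that locus. IDR peaks were assigned to 3 constitutive genes and 2 J-domain genes and to none of the stress-induced or other hsp- genes, against 1.55% of all protein-coding genes. With 8 and 7 genes in the last 2 classes, finding none is near that background. Over the genes with a region, the median signal of the top region was 66.6 at members and 49.2 over all protein-coding genes. It was 88.0 at the 12 constitutive genes, 88.5 at the 3 stress-induced genes, 2 of which share their region, 48.2 at the 2 other hsp- genes and 50.5 at the 20 J-domain genes. The difference between classes was not tested.

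**Figure D1:**
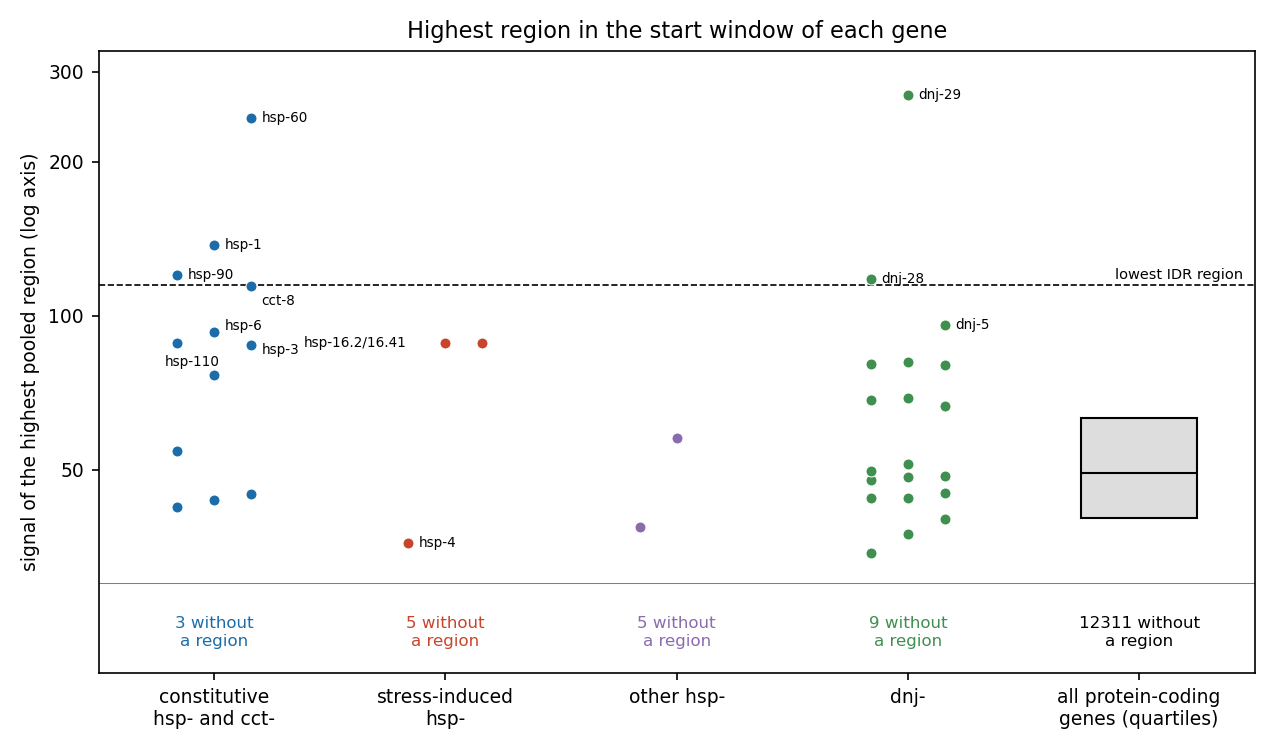
Each point is a heat shock or chaperone gene, placed by class and by the authors' signal of its highest pooled region (log axis, scale not stated); the box spans the quartiles of all protein-coding genes with a region, with its line at the median of 49.2, and genes without a region are counted below. Points for dnj-29, hsp-60, hsp-1, hsp-90 and dnj-28 lie above the dashed line at the lowest IDR signal of 114.7, with cct-8 just under it at 114.4.

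The strongest region of the constitutive class was at hsp-60, which encodes the mitochondrial chaperonin (III:1619742-1625803, plus strand). Its signal was 243.9 in the pooled list, rank 92. In the replicate lists the region had a signal of 153.0 (rank 62) in replicate 1 and 90.9 (rank 167) in replicate 2, so it was near the top of each list. The region covered III:1618897-1619352 on ce11 and its summit lay in an intergenic stretch, 617 bp upstream of hsp-60. The same summit was 196 bp upstream of the start of Y22D7AL.10, the divergent neighbour on the opposite strand, which RefSeq annotates as the mitochondrial 10 kDa heat shock protein, the co-chaperonin of HSP-60. The list cannot assign the region to either gene, and both products belong to the same chaperonin system.

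hsp-1 encodes the constitutive cytosolic Hsp70 (IV:17278959-17281330, plus strand). Its pooled signal was 137.3 (rank 319), with 75.2 (rank 355) in replicate 1 and 60.9 (rank 442) in replicate 2. The region was among the 495 strongest of both replicates, and of the 5 IDR members hsp-1 alone had a summit in no other gene's window. The summit was intergenic, 410 bp upstream of the start.

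hsp-90 encodes the cytosolic Hsp90 (V:14684918-14688545, plus strand), a chaperone of kinases and nuclear receptors. The region at hsp-90 had a pooled signal of 120.4 (rank 442), but the replicates placed it differently, with a signal of 85.6 at rank 253 of replicate 1 but 35.8 at rank 3748 of replicate 2. Its summit lay inside an hsp-90 intron, 21 bp before the start of a shorter transcript and 1221 bp downstream of the first annotated start. The window of C47E8.4 on the opposite strand also held the summit, 654 bp upstream of that gene. A separate pooled region just upstream of the first hsp-90 start had a signal of only 54.5 (rank 8275), so the IDR peak was assigned through the internal start.

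The reference bases under these regions are given with those of hsp-6, the mitochondrial Hsp70 that works with HSP-60, so that sites of high and low GC content can be read side by side. They are read 5′ to 3′ on the gene's strand from the RefSeq sequence of WBcel235 (the same coordinates as ce11). None of the motifs described further on is complete in these lines, so none holds capitals, but the bases within 50 bp of the hsp-90 summit hold 1 TTCNNGAA, which the hsp-90 line does not contain whole. The hsp-60 line covers III:1619075-1619175, the hsp-6 line V:4827130-4827230 (minus strand) and the hsp-1 line IV:17278499-17278599, each from 50 bp before to 50 bp after the summit. The hsp-90 line ends at the last base before the shorter transcript, V:14686059-14686159.
hsp-60: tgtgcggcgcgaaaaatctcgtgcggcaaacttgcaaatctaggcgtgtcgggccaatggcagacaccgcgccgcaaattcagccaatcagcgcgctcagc
hsp-6: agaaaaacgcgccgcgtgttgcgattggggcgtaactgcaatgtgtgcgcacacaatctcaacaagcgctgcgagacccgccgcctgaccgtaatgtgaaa
hsp-1: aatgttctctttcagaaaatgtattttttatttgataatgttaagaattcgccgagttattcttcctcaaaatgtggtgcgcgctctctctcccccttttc
hsp-90: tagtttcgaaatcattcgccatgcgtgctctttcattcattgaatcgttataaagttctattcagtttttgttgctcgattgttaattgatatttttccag

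Within 50 bp of the summit the GC content was 59.4% at hsp-60 and 56.4% at hsp-6, against 36.6% at hsp-1 and 35.6% at hsp-90. Over the 495 IDR regions the quartiles were 42.1%, 48.5% and 53.5%. No order by compartment followed over further members, with 53.5% at cct-8 and 60.4% at dnj-19, both of the cytosol, and 26.7% at dnj-21 of the mitochondria. The median over the top summits was 38.6% for the members and 38.6% for all protein-coding genes with a region.

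Below the IDR threshold, the constitutive genes formed a graded series. cct-8, a subunit of the cytosolic chaperonin, was just outside, with a pooled signal of 114.4 (rank 501) and signals of 57.2 (rank 850) in replicate 1 and 53.4 (rank 687) in replicate 2. hsp-6 had a pooled signal of 92.8 (rank 1025) and was stronger in the list of replicate 2 (57.4, rank 523) than in that of replicate 1 (35.4, rank 6503). The opposite imbalance was seen at hsp-110, an Hsp70 nucleotide exchange factor, with a pooled signal of 88.5 (rank 1236), 59.7 (rank 724) in replicate 1 and 26.3 (rank 11629) in replicate 2. hsp-3, one of the BiP genes for Hsp70 of the endoplasmic reticulum (ER), was like hsp-110, with 87.5 (rank 1291) in the pooled list, 65.0 (rank 547) in replicate 1 and 28.0 (rank 9591) in replicate 2. Among these 4 genes, cct-8 alone was within the 1000 strongest regions in both replicate lists.

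The 8 cct- genes encode subunits of a single ring complex, but their start windows did not carry like signals. After cct-8 came cct-4 with a pooled signal of 76.6 (rank 2200) and cct-2 with 54.4 (rank 8297). cct-3, cct-5 and cct-6 had signals of 44.9, 43.7 and 42.3, below the median of 49.2 over all protein-coding genes with a region. cct-1 and cct-7 had no candidate summit in any of the 3 lists. The same held for hsp-75, the mitochondrial Hsp90. At all 6 cct- genes with a region the summit was also in the window of a neighbour on the opposite strand, and at 5 of them it was nearer to the neighbour's start. At cct-8 the summit was 464 bp from the cct-8 start and 157 bp from that of Y55F3AR.2.

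The stress-induced genes were divided between loci. hsp-16.2 and hsp-16.41, small heat shock proteins, are transcribed away from each other on V and share 1 region between them (V:1804825-1805280), with a summit 96 bp upstream of hsp-16.2 and 125 bp upstream of hsp-16.41. Its pooled signal was 88.5 (rank 1233), and replicate 1 had a region of the same extent with a signal of 74.1 (rank 367). The strongest region of replicate 2 that overlapped it, with a signal of 44.9 (rank 1416), had its summit 191 bp away, past the start of hsp-16.41. That position matched a second pooled region with a signal of 71.5 (rank 2945), at which replicate 1 had 22.8 (rank 23348). The replicates thus placed their strongest region at different positions of the locus, and the summit between the genes came from replicate 1 and the pooled list.

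No candidate summit lay in the window of the other hsp-16 genes, which form an inverted duplication on V. Ensembl gives the symbols hsp-16.1 and hsp-16.48 to 2 genes each, so each copy was counted as a gene. From hsp-16.1 to hsp-16.48 the copies were identical over all 1325 bp, and none of the 299 words of 50 bases between hsp-16.1 and hsp-16.48 occurred once in the genome. Reads of that length from within either copy cannot be placed, and how the authors treated such reads is not given in the sources used here. An absent region within the identical stretch thus says nothing about occupancy there. The scored windows of these 4 genes also reach past the 1325 bp, those of hsp-16.1 into the stretch between the copies. The word length was a setting and need not be the read length. Between the copies, in a stretch of 662 bp where 75.5% of such words occurred once, the pooled list had a region with a signal of 97.5 (rank 847), which had 34.0 (rank 7491) in replicate 1 and 62.3 (rank 405) in replicate 2. It lay past the 3′ ends of both hsp-16.48 copies. Its summit, 745 bp from the start of the nearer one, was within no scored window of the hsp-16 genes. The ends of the region did overlap the windows of both hsp-16.1 copies.

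hsp-70, a heat-inducible cytosolic Hsp70, had no summit in any list, and the nearest pooled summit was 2364 bp from its start. hsp-4, the BiP gene induced by the unfolded protein response of the ER, had a weak region with a pooled signal of 36.0 (rank 25215), a signal of 18.2 in replicate 2 and no summit in replicate 1. Its summit was in a coding exon, 199 bp downstream of a start, at the edge of the window. The paralogous BiP gene hsp-3 thus had the higher signal in the pooled list, 87.5 against 36.0 at hsp-4.

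Heat-inducible Hsp70 genes without an hsp- symbol gave another result. F44E5.4 and F44E5.5 are divergent Hsp70 genes on II that lie outside the 59 members because the annotation names them by their clone. A region between them (II:11759224-11759679) was in the IDR list with a pooled signal of 164.2 (rank 224), and had 82.7 (rank 270) in replicate 1 and 80.6 (rank 208) in replicate 2. It was stronger than the region at hsp-1 in each of the 3 lists. Its summit was 141 bp upstream of F44E5.4 and 210 bp upstream of F44E5.5. Although 99% of the bases of F44E5.4 are in exact matches with F44E5.5, 98.3% of the words of 50 bases between the genes occurred once in the genome. The count of 0 IDR peaks among 8 stress-induced members therefore depends on selecting genes by symbol.

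**Figure D2:**
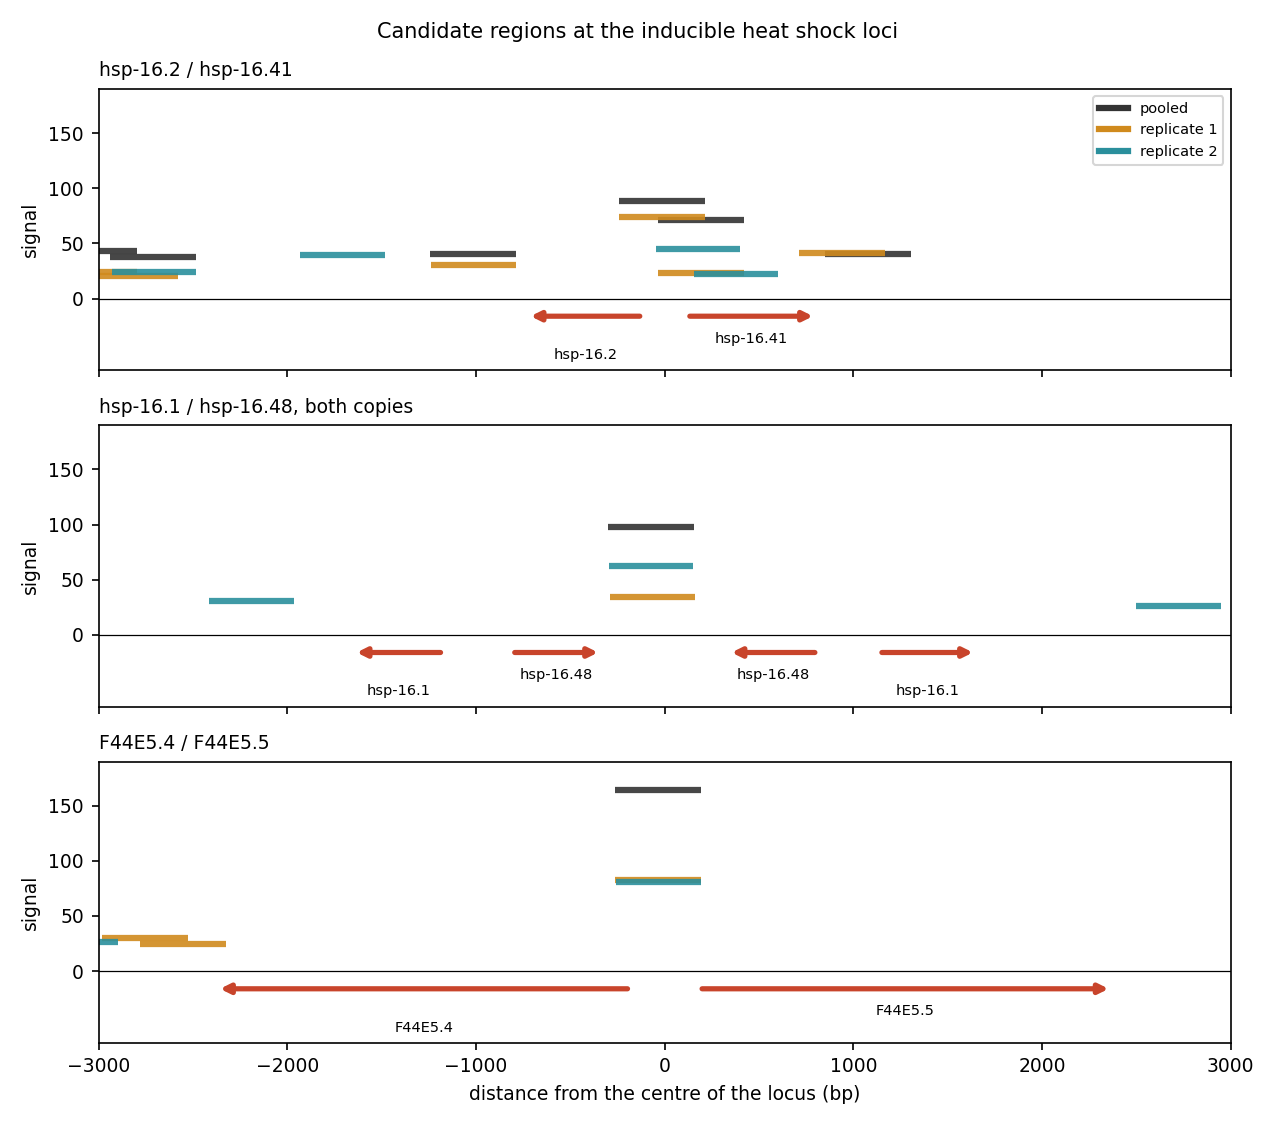
Horizontal bars are candidate regions by distance from the centre of each locus (bp) and by the authors' signal, for the pooled list and both replicates, and red arrows are the genes pointing in the direction of transcription. Signals of different lists are on their own scales. Regions of all 3 lists coincide between F44E5.4 and F44E5.5. The strongest region of replicate 2 at hsp-16.2 and hsp-16.41 is centred inside hsp-16.41, and the regions at the hsp-16.1 and hsp-16.48 copies lie between or outside the copies.

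The heat shock cores GAANNTTC and TTCNNGAA, where N is any base, were searched in the 300 bp before the first start of each gene. Both read the same on both strands and can overlap each other. All 8 stress-induced genes held both cores, and 11 of the 15 constitutive genes, 11 of the 29 J-domain genes and 1 of the 7 other hsp- genes held at least 1. Together this was 52.5% of the members, against 32% of all protein-coding genes. The 8 stress-induced genes are not 8 separate sequences. hsp-16.2 and hsp-16.41 share a stretch, and the identical copies of hsp-16.1 and hsp-16.48 repeat another, so the same cores are counted more than once. Candidate summits were assigned to 19 of the 31 members with a core and to 18 of the 28 without, and IDR peaks to 3 and 2 of them. The background was 38.4% of all protein-coding genes for candidate summits and 1.55% for IDR peaks. These shares were not divided by core. Within 50 bp of the summits the cores were in 13.9% of the 36 distinct top regions of the members, 9.09% of the IDR regions and 12.8% of all candidates.

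The stretches between the divergent inducible genes are printed because the 3 loci carry the same cores but differ in their regions. Capitals mark the heat shock cores and the word CACTTG on either strand, and the sequences run on the plus strand of WBcel235 (RefSeq). The first is all 220 bp between hsp-16.2 and hsp-16.41 (V:1804958-1805177), with 1 GAANNTTC and 2 TTCNNGAA. The second is the 220 bp before hsp-16.48 in copy A (V:9087911-9088130), with 1 of each. The third is the middle 300 bp between F44E5.4 and F44E5.5 (II:11759337-11759636), with 7 of each.
hsp-16.2 and hsp-16.41: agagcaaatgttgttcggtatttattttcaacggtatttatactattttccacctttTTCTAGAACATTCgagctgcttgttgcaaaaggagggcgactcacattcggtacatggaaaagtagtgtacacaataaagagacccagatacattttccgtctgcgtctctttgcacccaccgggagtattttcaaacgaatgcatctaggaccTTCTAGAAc
hsp-16.1 and hsp-16.48, copy A: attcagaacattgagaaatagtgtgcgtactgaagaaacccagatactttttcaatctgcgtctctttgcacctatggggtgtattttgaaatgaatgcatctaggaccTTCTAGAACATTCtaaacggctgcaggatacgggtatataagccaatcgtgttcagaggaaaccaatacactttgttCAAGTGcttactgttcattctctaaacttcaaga
F44E5.4 and F44E5.5: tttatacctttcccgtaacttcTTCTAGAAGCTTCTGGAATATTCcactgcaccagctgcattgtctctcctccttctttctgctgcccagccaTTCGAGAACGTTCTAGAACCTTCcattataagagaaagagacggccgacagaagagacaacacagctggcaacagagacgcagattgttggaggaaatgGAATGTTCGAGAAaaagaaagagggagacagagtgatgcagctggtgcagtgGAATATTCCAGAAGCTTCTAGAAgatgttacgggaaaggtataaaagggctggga

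The F44E5.4 and F44E5.5 stretch, with the strongest of these regions, also held the most cores, but these are 3 loci and the number of cores was not compared with signal across genes. The word CAGGTG, the E-box bound by Snail proteins in other animals, was in none of these stretches. It was in 1 of the 36 distinct top regions of the members (2.78%), against 1.62% of the IDR regions and 2.65% of all candidates. In the 300 bp before the start it was found at 6.78% of the members, against 7.92% of all protein-coding genes. CACTTG, another E-box, was at the summit of 3 of the 36 regions (8.33%), against 7.68% of the IDR regions and 3.98% of all candidates. In the 300 bp before the start CACTTG was found at 23.7% of the members, with the hsp-16 copies counted separately, against 12.1% of all protein-coding genes. No match says only that these letters are not in the window.

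The J-domain genes contained the strongest region of all members. dnj-29, whose human counterpart SEC63 acts at the ER translocation channel, had a pooled signal of 270.0 (rank 72), with 159.0 (rank 55) in replicate 1 and 107.5 (rank 117) in replicate 2. Its summit was intergenic on I, 172 bp upstream of dnj-29, and the windows of ndua-2 and fld-1 on the opposite strand held it too, at greater distances. A second dnj-29 region, with a signal of 121.9 (rank 425), was also in the IDR list, and its summit was nearer to the start of ndua-2. dnj-28, the counterpart of the human ER co-chaperone DNAJC3, had a pooled signal of 118.3 (rank 456), 66.2 (rank 518) in replicate 1 and 52.0 (rank 765) in replicate 2. The summit of dnj-28 was 159 bp upstream, in the window shared with supr-1. With rank 456 of 495, dnj-28 was the IDR member nearest to the threshold.

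The J-domain proteins of the strongest regions thus work at or in the ER, but others of that compartment were lower. dnj-20, an ER J-domain protein, had a pooled signal of 81.1 (rank 1752), and dnj-27, an ER protein with thioredoxin domains, had 34.4 (rank 27583). dnj-5 came next among the dnj- genes, with a pooled signal of 95.8 (rank 896), 73.8 (rank 373) in replicate 1 and 41.7 (rank 1954) in replicate 2. Its summit was far from the gene, 885 bp upstream, and the overlapping region of replicate 2 had its summit 217 bp from the pooled one.

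Of the cytosolic partners of Hsp70, dnj-19 had a pooled signal of 80.6 (rank 1802) at a summit in an untranslated exon of nhr-47, and dnj-13 had 69.2 (rank 3363). dnj-9 had 80.0 (rank 1852), dnj-21, a part of the mitochondrial import motor, 68.6 (rank 3491) and dnj-23 66.6 (rank 3906). dnj-22 and dnj-8 had 51.2 and 49.8, close to the median of 49.2 over all protein-coding genes. The remaining J-domain genes with a region had signals of at most 48.5, and 9 J-domain genes had no pooled region. dnj-25, which encodes auxilin, had 4 pooled summits in its windows, the highest with a signal of only 44.0.

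Among the 7 other hsp- genes, the 2 with a region lay on either side of the median of 49.2 over all protein-coding genes with a region. hsp-12.2 had a pooled signal of 57.7 (rank 6776) at a summit in its own intron, 139 bp downstream of the start. hsp-25 had 38.7 (rank 21720), at an internal start. hsp-12.1, hsp-12.3, hsp-12.6, hsp-17 and hsp-43 had no candidate summit in any list.

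The replicate lists gave nearly the same number of members as the pooled list. In replicate 1, 35 members had a candidate summit, against 38.5% of all protein-coding genes, and in replicate 2, 36 members, against 39.0%. Both lists had a summit at 28 members, against 24.2% of all protein-coding genes, and 16 members had no summit in any list. Summits in only 1 replicate were found at 7 members for replicate 1 and 8 for replicate 2. Of all 19973 protein-coding genes, 7681 had a summit in replicate 1, 7786 in replicate 2 and 4842 in both. The share of all genes with no summit in any list was not computed, so the 16 members have no background beside them.

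The strongest regions were less evenly shared. Among the 495 strongest regions of replicate 1 were those of 7 members, against 1.51% of all protein-coding genes: dnj-29, hsp-60, hsp-90, hsp-1, hsp-16.2, hsp-16.41 and dnj-5. In replicate 2 only 3 were, against 1.52%: dnj-29, hsp-60 and hsp-1. These 3 were in both, against 1.00% of all protein-coding genes. The number of strong members thus rested on the replicate used, and replicate 1 alone placed a region between hsp-16.2 and hsp-16.41 among the strongest.

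Over the 25 distinct member regions overlapped in both replicate lists, the rank correlation (Spearman's rho) of the signals was 0.54, and it was 0.29 over the 20 of them outside the IDR list. The same measure over all 4204 genes with such a region was 0.40. At the 5 IDR members both replicate summits were within 9 bp of the pooled summit, whereas over the 25 regions this held within 100 bp for 14, so some of the paired signals belong to neighbouring summits. The correlations are across regions of the same pair of libraries and are descriptions. The order of the members differed between replicates. Leaving out the IDR regions takes away the strongest regions of both lists, and a narrower range can by itself lower rho. The lower value therefore does not show that likeness is poorer below the IDR level.

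**Figure D3:**
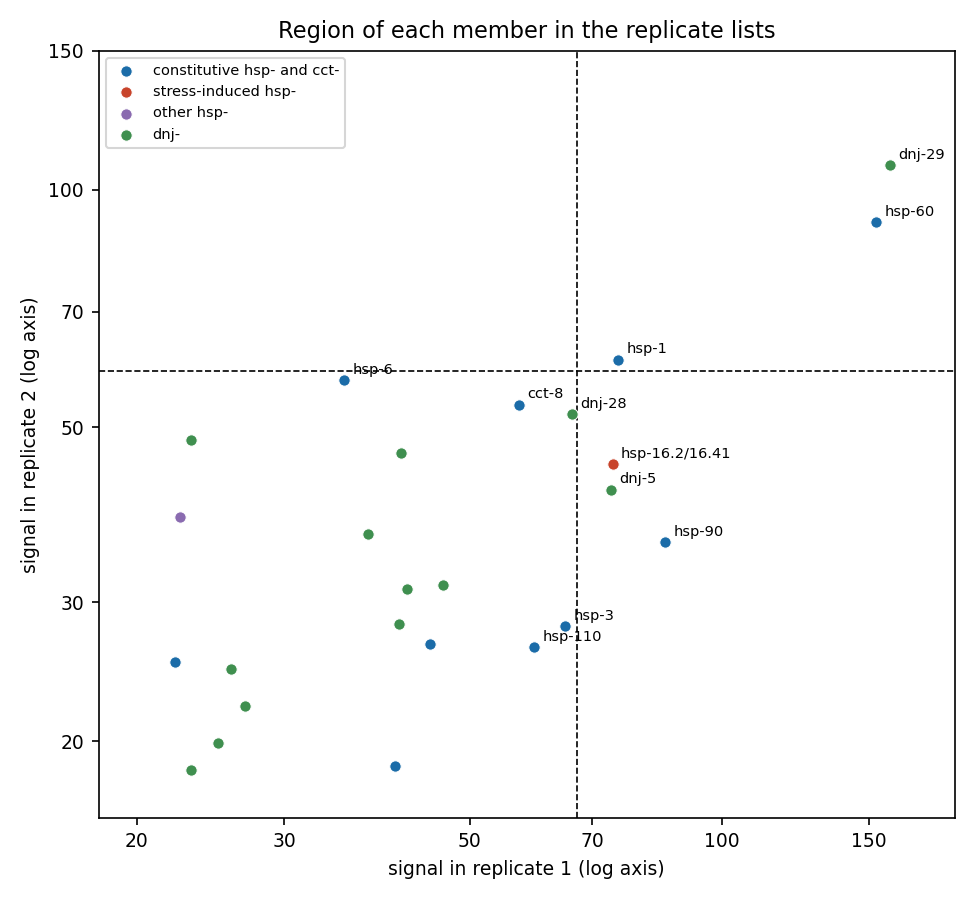
Each point is a member whose top pooled region was overlapped in both replicate lists, by the authors' signal of the strongest overlapping region in replicate 1 and in replicate 2 (log axes, each list on its own scale). Dashed lines mark the signal at rank 495 of each list; dnj-29, hsp-60 and hsp-1 lie past both lines, and hsp-90, dnj-5 and the shared hsp-16.2 and hsp-16.41 point lie past the line of replicate 1 alone.

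The top summits of the members were mostly upstream, which the window favours, as it reaches 1000 bp upstream but only 200 bp downstream. Their median position was 373 bp upstream of the nearest start, against 297 bp upstream over all protein-coding genes with a region. Of the 37, 12 were within 200 bp of a start and 2 were downstream. Of the 7662 protein-coding genes with a region, 2981 and 1430 were. Some summits, as at hsp-90 and dnj-20, were upstream of an internal start but downstream of the first start. The annotation placed 23 of them between genes, 10 in introns, 3 in untranslated exons and 1 in a coding exon. None was within 100 bp of a tRNA, snoRNA or snRNA gene, where 1.59% of the top summits of all protein-coding genes lay.

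**Figure D4:**
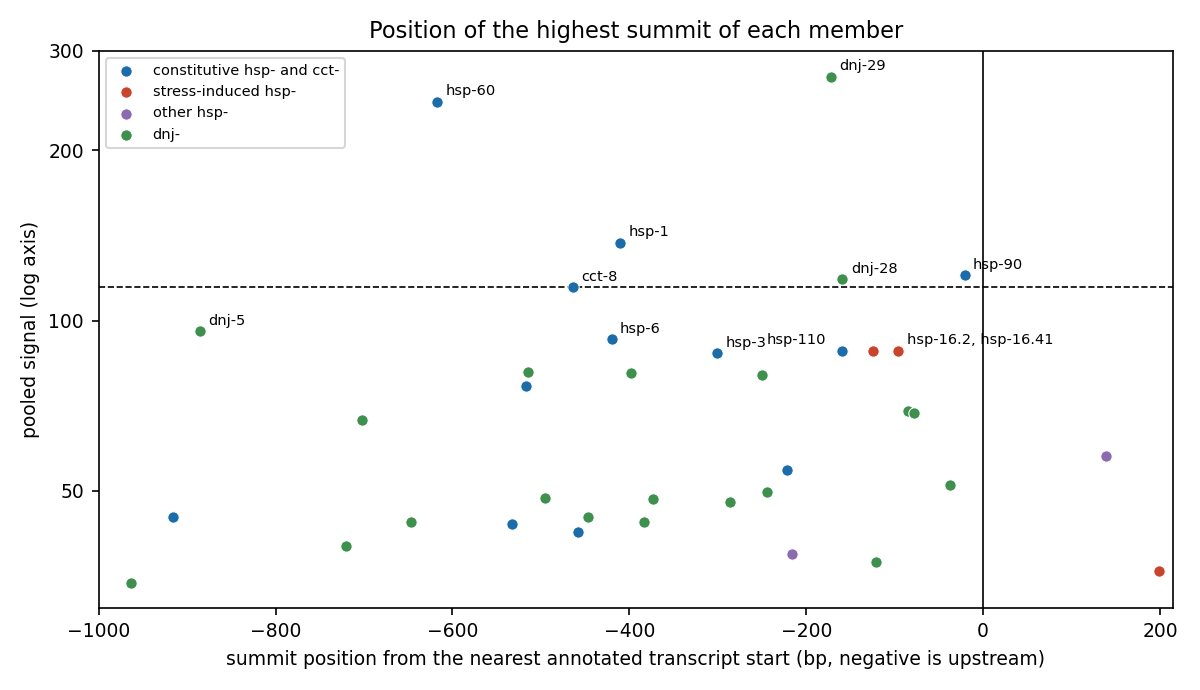
Position of the highest pooled summit of each member from its nearest annotated transcript start (bp, negative is upstream) against the authors' signal (log axis); colours give the classes and the dashed line the lowest IDR signal of 114.7. The 5 summits above that line lie between 617 bp and 21 bp upstream, and the 2 summits right of the start belong to hsp-12.2 and hsp-4.

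Many of these regions could belong to another gene. The top summit was also in the window of another protein-coding gene at 23 of the 37 members (62.2%), against 25.7% of all protein-coding genes with a region. Among the constitutive genes this held for 11 of 12, hsp-1 being the exception. Every such neighbour was on the opposite strand, but not every region lay between 2 adjacent divergent genes. The hsp-90 summit was inside an hsp-90 intron, and the dnj-13 summit was in an intron of a further gene, dhgd-1. At 13 of the 23 the summit was nearer to the start of the neighbour. With each summit given only to its nearest start, 7 constitutive genes kept a candidate summit in place of 12, and hsp-60 lost its IDR peak to Y22D7AL.10. Without shared regions, a setting chosen after seeing the data, hsp-1 was the only member left with an IDR peak.

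Lists of other protein folding genes, 47 in all, were scored the same way. Candidate summits were assigned to 30, against 38.4% of all protein-coding genes, and IDR peaks to 3, against 1.55%. These 3 were F44E5.4 and F44E5.5, which share 1 region, and bag-1. bag-1, a nucleotide exchange factor of Hsp70, had a pooled signal of 133.9 (rank 333), with 70.2 (rank 429) in replicate 1 and 63.8 (rank 385) in replicate 2, values close to those of hsp-1. Of the 11 co-chaperones 8 had a candidate summit, and sti-1, which links Hsp70 to Hsp90, had a pooled signal of 69.7. Of the 3 Hsp70 genes without an hsp- symbol that were listed, F11F1.1 had no summit, and RefSeq annotates it as a protein of another family.

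Among the 12 regulators of the heat shock and unfolded protein responses, 6 had a candidate summit, against 38.4% of all protein-coding genes, and none an IDR peak, against 1.55%. With 12 genes these counts are near the background. The highest were atf-6, an ER stress sensor, with a pooled signal of 95.3 (rank 910), and ubl-5, a cofactor of the mitochondrial response, with 94.5 (rank 955). hsf-1 had 47.0 (rank 13262), and the overlapping regions had rank 10178 in replicate 1 and rank 15983 in replicate 2. Elsewhere in the hsf-1 window replicate 1 had a stronger region, at rank 3587. xbp-1 had no pooled summit. The gene for the heat shock factor was thus below the median of 49.2 over all protein-coding genes with a region.

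The 38.4% of all protein-coding genes is also the background for the smaller lists. Of the 9 ER folding genes 7 had a candidate summit, the highest being pdi-2, a protein disulfide isomerase, with a pooled signal of 107.1 (rank 614), 73.0 (rank 266) in replicate 2 and, at a summit 155 bp away, 52.2 (rank 1222) in replicate 1. Of 8 genes for prefoldin and the nascent chain complex 5 had one, led by pfd-5 with 84.4. Of 4 mitochondrial proteases 2 had one, clpp-1 with 80.5 and ymel-1 with 70.5. Over the 30 genes with a region in these lists the signals ran from 35.0 to 164.2, with a median of 65.8, close to the 66.6 of the members.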

How the data were processed

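Per the labels, both libraries are biological replicates of SNAI-1 ChIP-seq. The authors deposited region lists in narrowPeak format on ce11, and their columns for signal, for −log10 q-value and for summit position from the region start were read as deposited. Per the deposited manifests, a replicate list was made from 1 alignment with a control, the pooled list used both alignments with a control, and the IDR list combined these 3 lists. The caller, the aligner, software versions and the IDR cut-off are not given in the sources that were used. Each candidate list held 30000 regions (lowest pooled −log10 q 0.0372), so number and not significance limited it. Read counts were not given, so depth is unknown and the precision of a signal cannot be stated. The lists on ce10 and the control were not used here.

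Summits were assigned to start windows with Python 3.11.15 and numpy 2.4.6 (rank correlations with scipy 1.17.1, figures with matplotlib 3.10.9), a procedure tested on simulated data. With 1 group and 2 replicates there was no test between conditions. Genes were named by rule: every member with an IDR summit, every constitutive or stress-induced member, and the 10 others of highest signal. Further members, among them dnj-25 and dnj-27, and genes of the other lists were picked after their values were seen. The members and lists were chosen with earlier results of these data known. Other windows, overlap rules, assignments, numbers of regions and single replicates were tried.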

Additional observations from a re-analysis of the deposited data

How the results depend on the processing

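The count of 37 members with a candidate summit stayed between 27 and 44 over all alternatives tried. Another window or assignment also changes the share of all protein-coding genes. That share is given here for the single replicates only, so the excess over the background was not compared under the other settings. From single replicates it was 35 to 36. The 5 members with an IDR summit became 2 with the stronger 247 regions, 1 with shared regions left out (a setting chosen after seeing the data), and 3 to 7 with the 495 strongest regions of 1 replicate in place of the IDR list, the 3 coming from replicate 2. The 0 stress-induced members with an IDR summit became 0 to 2 from single replicates, the 2 coming from replicate 1, and 1 with hsp-6 and hsp-60 counted as stress-induced. The 3 constitutive members with an IDR summit were 2 to 3 from single replicates. Constitutive members with a candidate summit were 7 with nearest starts only and 11 from either replicate. Stress-induced members with a candidate summit were 5 with the window of 2000 bp upstream to 500 bp downstream, 5 with any overlap, 5 with hsp-6 and hsp-60 added, and 2 to 3 from single replicates. The median signal of 66.6 became 62.2 with any overlap and 56.1 with nearest starts. It was not set beside single replicates, whose signals have their own scale. Of all these alternative values 44 stayed within 1.5 times the count or within the spread of the median, and 11 moved further. No paired analysis was possible because there was 1 group. Depth is unknown, so a region missing from a list does not show absence of occupancy.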
